A study of Mus musculus with 5 samples.

Results

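Ifit1, Ifit2, Ifit3, Rsad2, Isg15, Usp18, Oasl2, Oas1a, Ifi44 and Rtp4 are antiviral effector genes of the type I interferon response. All 10 were found by gene symbol among the 27998 genes of the files. They were followed through single mouse cells, from mammary glands in 4 libraries and a mammary tumor in 1, by droplet 3' RNA sequencing that count unique molecular identifiers (UMIs). The BPK tumor library came from a tumor that arose after 24 injections of 4NQO, a quinoline carcinogen that forms bulky DNA adducts. The BPK 4NQO glands (2 libraries, replicates 1 and 2) and the PK 4NQO gland (1 library) had 12 injections of 4NQO into the ducts. The BPK vehicle gland (1 library) had 12 injections of the PBS and PEG carrier. BPK mice had 1 floxed and 1 wild-type Brca1 allele, and PK mice had wild-type Brca1. Every mouse, vehicle included, also carried Krt14cre with both Trp53 alleles floxed, so that Cre acts in cells of the Krt14 lineage and in their descendants. The labels do not say whether the BPK 4NQO replicates came from separate animals. P-values therefore rest on the spread between these libraries, which may be technical.

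Type I interferons bind the receptor pair IFNAR1 and IFNAR2, whose kinases JAK1 and TYK2 switch on ISGF3, a factor that binds the interferon-stimulated response element (ISRE) in promoters of antiviral genes. Type III interferons use another receptor and the same factor, while interferon gamma acts mainly at GAS sites. Among the products studied here, IFIT1, IFIT2 and IFIT3 bind foreign RNA or the complex that does so, and viperin, encoded by Rsad2, makes a chain-terminating nucleotide. OAS1A synthesises the oligoadenylates that switch on RNase L, and OASL2 is a relative from the same family. ISG15 is a ubiquitin-like protein that is joined to other proteins, and USP18 removes it and also damps IFNAR2 signalling. Ifi44 and Rtp4 are widely used markers of the response, and RTP4 also acts as a chaperone of receptors.

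In the GENCODE M21 annotation of mm10 the 3 Ifit genes lie together on chromosome 19, with Ifit2 at chr19:34550694-34576419, Ifit3 at chr19:34583531-34588731 and Ifit1 at chr19:34640871-34650009, all on the plus strand. Oasl2 (chr5:114896936-114912234, plus strand) and Oas1a (chr5:120896256-120907521, minus strand) lie on chromosome 5. Rsad2 is at chr12:26442746-26456452, Isg15 at chr4:156199424-156200818 and Ifi44 at chr3:151730922-151749960, all on the minus strand. Usp18 is at chr6:121245906-121270917 and Rtp4 at chr16:23520291-23614222, both on the plus strand. All 10 are protein-coding, and the UMIs count their transcripts from the 3' end. Rtp4 overlaps the predicted gene Gm45338 on its own strand and Masp1 on the other, and Usp18 overlaps Gm44148 on the other strand. Close relatives (Ifit3b for Ifit3, Oas1g and others for Oas1a, Ifi44l for Ifi44, Oasl1 for Oasl2) can share reads with members, so those counts are uncertain to that extent.

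RefSeq promoter windows (GRCm38.p6, 250 bases before to 50 after a start site) were found for 8 of the 10 genes, in 9 windows because Ifit2 has a pair of start sites. The core of the ISRE was searched on both strands as GAAA, 2 bases of any kind and GAAA again, which on the reverse reads TTTC, 2 bases and TTTC. It was found in the windows of 5 of the 8 genes (5 of 9 windows), against 1131 of all 32851 windows of this length (3.443%). The stretches upstream of the start site that hold it are printed because they are the letters this group of genes is known for. They run 5' to 3' on the strand of the gene, with each match in capitals, and adjoining matches in Isg15 and Oas1a overlap.
Isg15, chr4:156200862-156200921, minus strand: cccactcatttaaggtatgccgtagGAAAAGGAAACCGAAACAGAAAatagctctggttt
Oas1a, chr5:120907526-120907570, minus strand: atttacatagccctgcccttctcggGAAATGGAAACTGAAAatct
Rsad2, chr12:26456538-26456597, minus strand: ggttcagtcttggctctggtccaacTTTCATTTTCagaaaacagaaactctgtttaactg
Ifit3, chr19:34583348-34583426, plus strand: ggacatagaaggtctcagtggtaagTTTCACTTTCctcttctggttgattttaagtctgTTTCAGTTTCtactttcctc
Ifit1, chr19:34640760-34640823, plus strand: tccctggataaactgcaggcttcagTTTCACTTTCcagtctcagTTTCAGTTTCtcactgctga
Isg15 held 3 matches, Ifit1, Ifit3 and Oas1a 2 each, and Rsad2 1. Ifit1 and Ifit3 hold the same pair of matches, GAAAGTGAAA and GAAACTGAAA when read on the opposite strand. The windows of Ifi44, Oasl2 and Ifit2 held no match to these letters. The GAS letters TTCNNNGAA, which read the same on both strands, were in 2 of the 9 windows (Oas1a and 1 of Ifit2), against 8.298% of all windows, and overlapped no ISRE match.

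The libraries held 27383717 to 64169843 UMIs, and 33551 of 34526 barcodes were kept. Cells were put into classes by marker genes that include none of the 10, which gave 26367 cells a class, 1141 of them near the gate; 7184 were left unresolved. Each main class is called here by the name of its markers (alveolar-like, basal-like and so on, shortened to alveolar and basal), and these are ranges of marker scores rather than proven types. Of the 14 other cell type lists, those with a median over cells above 0 numbered at most 3 in each main class except keratinocyte-like cells, which had 6 and share keratins with basal cells. In 2 classes the basal list had a higher median than the list of the class itself. These were keratinocyte-like cells (208 against 99.8 UMIs per 10000) and pericytes (80.2 against 35.5 UMIs per 10000). BPK 4NQO replicate 2 stands apart from the other libraries. It has the lowest median depth (2523 UMIs a barcode), no more than 2 of its barcodes recur in another library, while other pairs have 26 to 107 in common, and it holds 766 macrophages against 88 to 211. Outside macrophages and dendritic cells, the macrophage list summed to 38.7 to 156 CPM (UMIs of a gene scaled to the same total in every class and library) over its classes, against 0 to 19.2 CPM in replicate 1, 19.3 to 174 CPM in the tumor, 0 to 11.9 CPM in PK 4NQO and 7.82 to 22.5 CPM in vehicle. In dendritic cells of replicate 2 it was 201 CPM. As a gauge of stray macrophage RNA, the complement gene C1qa stood in the main non-macrophage classes of replicate 2 at 0.770% to 2.10% of its macrophage level, and in replicate 1 at 0.0384% to 0.128%. It stood at 0.124% to 0.949% in the tumor, which overlaps replicate 2, at 0% to 0.0656% in PK 4NQO and at 0% to 0.133% in vehicle. At the ratio of each class, macrophage RNA would make up most or all of the measured level in 12 of 88 values of replicate 2. The 88 are the 10 genes and their sum in each class. The 12 were Rsad2 in 5 classes, Ifit2 in 6 and Ifi44 in 1. Results are therefore given for each library, and with each replicate left out. UMIs from the 3' end do not show which exons a floxed allele has lost, so they do not check the genotypes.

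Over all kept cells the summed level of single genes already differed between libraries. Isg15 stood at 60.02 CPM in the BPK tumor, 101 and 211 CPM in BPK 4NQO, 64.6 CPM in PK 4NQO and 28.9 CPM in BPK vehicle. Rsad2 stood at 13.3 CPM in the tumor, 15.9 and 397 CPM in BPK 4NQO, 10.1 CPM in PK 4NQO and 9.05 CPM in vehicle. In such sums, fewer cells of a class and less RNA per cell cannot be told apart, so all further values are within a class. Of all UMIs of the 10 genes in the class sums, 29.4% came from Isg15, 23.5% from Rsad2, 12.0% from Rtp4 and 1.44% from Oas1a. Macrophages of BPK 4NQO replicate 2 gave 8605 of the 11459 UMIs of Rsad2, and without them the shares were 37.4% for Isg15, 8.89% for Rsad2, 16.9% for Rtp4 and 1.97% for Oas1a. These are 3' counts, which do not grow with transcript length.

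Macrophages had the highest summed level of the 10 genes in every library. The sum reached 841 CPM in macrophages of the tumor (95% counting interval 790 to 895), 835 CPM (758 to 917) and 5142 CPM (5064 to 5221) in BPK 4NQO, 980 CPM (844 to 1133) in PK 4NQO and 672 CPM (611 to 737) in vehicle. Replicate 2 alone stands out there, and the other 4 libraries lie within 672 to 980 CPM. In basal cells the sum was 292 and 258 CPM in BPK 4NQO, 80.9 CPM in PK 4NQO and 20.7 CPM in vehicle, and the intervals of the 3 groups did not overlap. Alveolar cells had 341 CPM in the tumor, 346 and 404 CPM in BPK 4NQO, 192 CPM in PK 4NQO and 64.2 CPM in vehicle. Hormone-sensing cells, the other luminal class, had 265 CPM in the tumor, 103 and 259 CPM in BPK 4NQO, 77.0 CPM in PK 4NQO and 69.7 CPM in vehicle. Among these the BPK 4NQO replicates were further apart than replicate 1 was from vehicle.

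**Figure D1:**
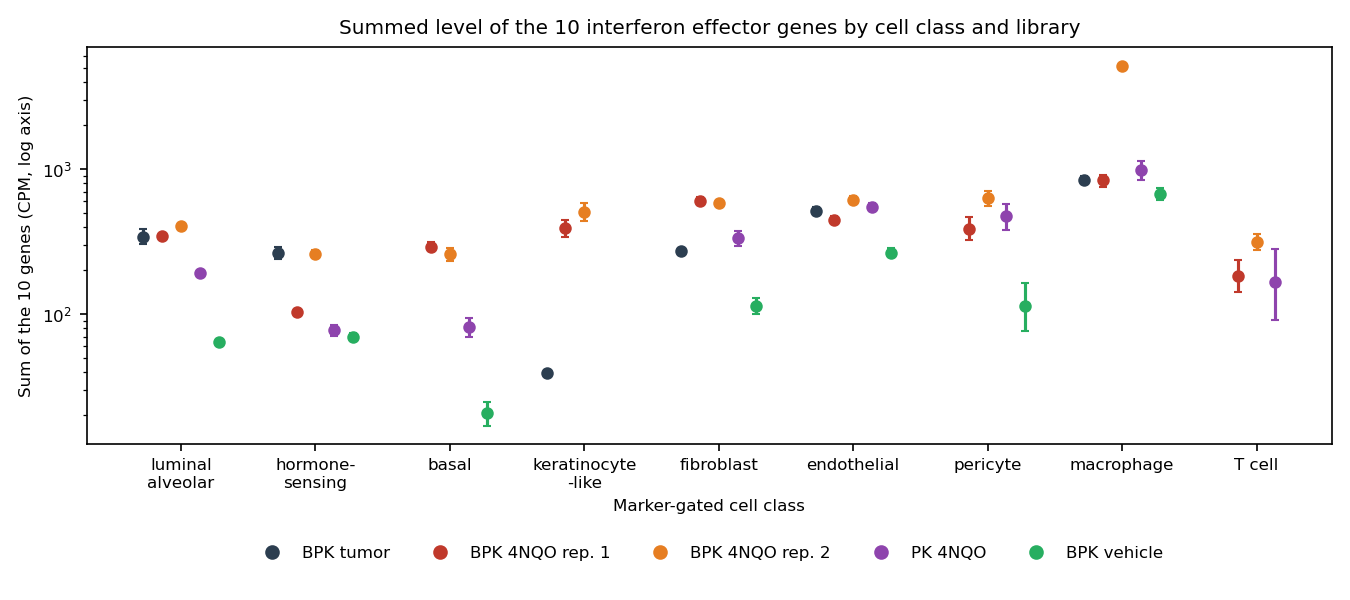
Summed level of the 10 genes (CPM, log axis) for each library in each marker-gated cell class, with exact 95% Poisson intervals that cover counting error only. The BPK vehicle library is lowest in each of the 7 classes where it is shown, and BPK 4NQO replicate 2 is at 5142 CPM in macrophages.

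Stromal classes also had their lowest sum in vehicle. Fibroblasts had 271 CPM in the tumor, 604 and 587 CPM in BPK 4NQO, 333 CPM in PK 4NQO and 114 CPM in vehicle. Endothelial cells had 514 CPM in the tumor, 449 and 612 CPM in BPK 4NQO, 546 CPM in PK 4NQO and 265 CPM in vehicle. Pericytes had 389 and 628 CPM in BPK 4NQO, 473 CPM in PK 4NQO and 113 CPM in vehicle. T cells, scarce outside BPK 4NQO, had 184 and 315 CPM there and 167 CPM in PK 4NQO, where only 14 UMIs were counted. Keratinocyte-like cells had 39.0 CPM in the tumor, against 391.9 and 506 CPM in BPK 4NQO, and the intervals did not overlap.

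Which class held the highest level depended on the gene. In BPK 4NQO replicate 1, macrophages were highest for 4 of the 10 genes, fibroblasts for 3, keratinocyte-like cells for 2 and alveolar cells for 1. Macrophages were highest for 8 genes in replicate 2, 6 in the tumor, 4 in PK 4NQO and 7 in vehicle. Rsad2 made up 51.9% of the members' UMIs in macrophages of BPK 4NQO replicate 2, against 18.4% in replicate 1, and 22.8% in the tumor, 21.3% in PK 4NQO and 32.2% in vehicle. Isg15 was 50.3% and 39.2% of those UMIs in basal cells of BPK 4NQO, 51.3% in PK 4NQO and 56.8% in vehicle. It was thus the main member there in all 4 libraries.

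The genes most like the 10 in pattern were ranked by Pearson correlation with their mean over the 47 sums of a class in a library, among 10807 genes. Ifih1 (r = 0.82), which encodes the RNA sensor MDA5, came first, then Oasl1 (0.79), Cyp4v3 (0.75), Ifi204 (0.75) and Rufy3 (0.74). These sums share libraries and depth, so the values describe them only. Within the set, Ifit1 was closest to the mean of the other 9 (r = 0.88) and Rtp4 (0.57) and Usp18 (0.58) were furthest.

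The question of the treatment comparison was what 4NQO did in BPK glands, with BPK 4NQO set against BPK vehicle in 7 classes. Of 70 gene and class pairs, 11 passed the test, all of them higher in BPK 4NQO, where 0.208% of all genes tested over these classes were called higher and 0.0599% lower. DESeq2 called 5 pairs. These 11 were 5 genes in basal cells, 5 in alveolar cells and Ifi44 in fibroblasts. Of the 70 pairs, 62 had enough counts to be tested, and 61 of those had a log2 fold change above 0. The test was edgeR's quasi-likelihood test on summed counts, with Benjamini-Hochberg adjustment over all genes of a class and a threshold of 0.05.

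Basal cells, the Krt14-expressing outer layer of the duct, had 5 called genes, all higher. Of all genes tested in that class, 0.248% were called higher. Ifit1 had 45.9 and 25.5 CPM in BPK 4NQO, against 0.372 CPM (2 UMIs) in vehicle. This is a 95.9-fold ratio (26.6 to 792 from the counting error of the low count alone), and the fitted log2 fold change was 6.35 ± 1.05 (SE, adjusted p = 7.29e-06). Both BPK 4NQO libraries lie far above vehicle. Isg15 had 147 and 101 CPM in BPK 4NQO, against 11.7 CPM in vehicle (log2 fold change 3.28 ± 0.83, adjusted p = 0.0344). Oasl2 had 32.1 and 40.3 CPM in BPK 4NQO, against 2.60 CPM in vehicle (3.61 ± 0.82, adjusted p = 0.00732). Rtp4 had 42.1 and 23.4 CPM in BPK 4NQO, against 2.23 CPM in vehicle (3.76 ± 0.84, adjusted p = 0.00465). For these 3 genes too, both BPK 4NQO libraries lie above vehicle. Ifi44 had 4.97 and 19.1 CPM in BPK 4NQO, against 0.186 CPM (1 UMI) in vehicle, or 64.7-fold (11.6 to 2555 from counting error of the single UMI; adjusted p = 0.0315).

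The other basal values went the same way without a call, except 1. Usp18 had 10.3 and 12.0 CPM in BPK 4NQO, against 0.744 CPM in vehicle. Rsad2 had 3.44 and 16.98 CPM in BPK 4NQO, against 0.372 CPM in vehicle, and stray macrophage RNA at the C1qa ratio would give 30.7 CPM in replicate 2. Oas1a had 1.91 and 5.66 CPM in BPK 4NQO and no UMI in vehicle, which makes it at least 6.78-fold higher against a floor of 3 counts in that library. Ifit3 had 3.06 and 3.54 CPM in BPK 4NQO, against 0.372 CPM in vehicle, and was too low to test. Ifit2 is the exception, with 1.15 and 10.6 CPM in BPK 4NQO on either side of 2.05 CPM in vehicle. In all, 9 of the 10 genes had both BPK 4NQO libraries above vehicle, where 34.9% of tested genes did. The median log2 fold change of the 9 tested genes was 3.76 (3.68 with Oas1a at its bound), beside 0.02 over all genes. Of the 5 calls, DESeq2 made 2, Ifit1 and Isg15. Different clusters held basal cells, with 95.7% of those of replicate 1 and 91.5% of those of vehicle in Leiden cluster 0 and 91.1% of those of replicate 2 in cluster 15. The dissociation stress list summed to 7382 and 9880 CPM in basal cells of BPK 4NQO, against 4072 CPM in vehicle. The part of either in these values was not tested.

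Alveolar cells, the luminal class that makes milk proteins, had 5 called genes, all higher, where 0.444% of genes tested were called higher. Rsad2 had 12.0 and 53.8 CPM in BPK 4NQO, against 2.99 CPM in vehicle (3.19 ± 0.70, adjusted p = 0.00278). In replicate 2 the C1qa ratio would give 29.6 CPM of Rsad2, and without that replicate the log2 fold change was 1.95. Ifit3 had 5.64 and 5.17 CPM in BPK 4NQO, against 0.283 CPM in vehicle (4.07 ± 1.00, adjusted p = 0.0160), with the replicates close to each other. Ifi44 had 30.6 and 61.8 CPM in BPK 4NQO, against 5.50 CPM in vehicle (2.85 ± 0.72, adjusted p = 0.0216). Oasl2 had 46.7 and 58.1 CPM in BPK 4NQO, against 6.47 CPM in vehicle (2.83 ± 0.74, adjusted p = 0.0294). Ifit1 had 29.95 and 45.4 CPM in BPK 4NQO, against 5.17 CPM in vehicle (2.67 ± 0.70, adjusted p = 0.0331). Each of these 5 was above vehicle in both libraries.

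The 5 alveolar genes without a call were also above vehicle in both libraries, so that all 10 were, against 37.2% of tested genes. Isg15 had 113 and 120 CPM in BPK 4NQO, against 24.9 CPM in vehicle. Rtp4 had 91.7 and 35.9 CPM in BPK 4NQO, against 14.8 CPM in vehicle. Usp18 had 10.9 and 9.48 CPM in BPK 4NQO, against 1.78 CPM in vehicle. Oas1a had 2.94 and 5.46 CPM in BPK 4NQO against 0.687 CPM in vehicle, and Ifit2 had 3.16 and 8.91 CPM against 1.66 CPM. The median log2 fold change of the 10 was 2.52, beside 0.01 over all genes. DESeq2 called 3 of the 5, Ifit1, Oasl2 and Ifi44. Of the alveolar cells of replicate 2, 76.6% fell in cluster 7, which took no name and also held 87.4% of its hormone-sensing cells. Cluster 3, an alveolar cluster, and cluster 1, which took no name, held 56.4% and 26.3% of the alveolar cells of replicate 1, against 48.9% and 26.8% in vehicle. The stress list summed to 13540 and 14420 CPM in BPK 4NQO, against 9384 CPM in vehicle. The part of either in the alveolar values was not tested.

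**Figure D2:**
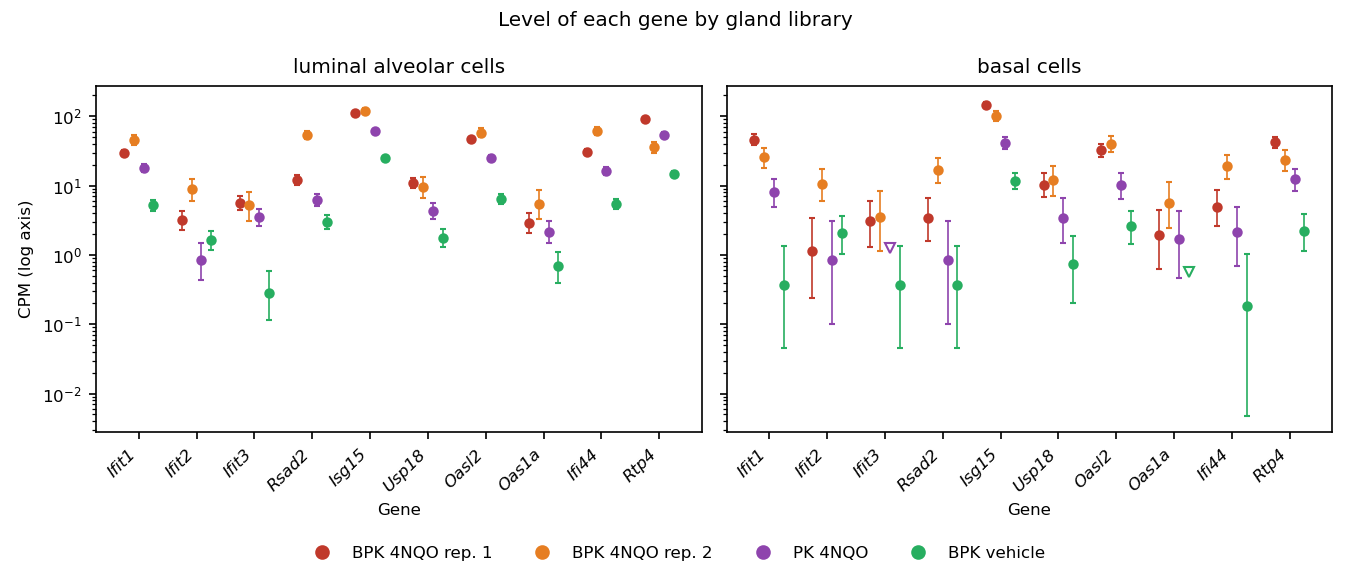
Level of each gene (CPM, log axis) in alveolar and basal cells of the 4 gland libraries, with exact 95% Poisson intervals; an open triangle marks no UMI and stands at the floor of 3 counts. BPK 4NQO lies above BPK vehicle for every gene in alveolar cells and for all but Ifit2 in basal cells.

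In fibroblasts 1 gene was called, Ifi44, where 0.252% of genes tested were called higher. It had 18.6 and 42.2 CPM in BPK 4NQO and no UMI in vehicle, at least 19.98-fold higher against the floor of 3 counts in that library (adjusted p = 0.000759, and DESeq2 gave no adjusted p for it). Rsad2 had 28.5 and 31.1 CPM in BPK 4NQO, against 2.03 CPM in vehicle, without a call. Ifit1 had 118 and 59.1 CPM in BPK 4NQO, against 13.2 CPM in vehicle. Isg15 had 224 and 209 CPM in BPK 4NQO, against 50.2 CPM in vehicle. Of the 10 genes, 9 lay above vehicle in both BPK 4NQO libraries, against 37.8% of tested genes, and Oas1a was the exception with 3.10 and 7.92 CPM in BPK 4NQO around 3.55 CPM in vehicle. The median log2 fold change was 2.30, beside 0.06 over all genes. Cluster 5 held 84.7% of the fibroblasts of replicate 1, against 97.8% in vehicle, while cluster 13 held 77.0% of those of replicate 2, and the part of this in the values was not tested.

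No member was called in the other 4 classes by edgeR's quasi-likelihood test or by DESeq2. At an unadjusted p under 0.05 there were 4 in hormone-sensing cells, 3 in endothelial cells, 3 in macrophages and 2 in pericytes. The same p was reached by 2.55% of all genes tested in hormone-sensing cells, 1.59% in endothelial cells, 1.52% in macrophages and 1.24% in pericytes. The shares of all genes called higher there were 0.143% in hormone-sensing cells, 0.12% in endothelial cells, 0.0% in macrophages and 0.04% in pericytes. Endothelial cells had all 10 genes higher in both BPK 4NQO libraries, against 26.8% of tested genes, with a median log2 fold change of 1.15. Rsad2, however, was nearly level there between replicate 1 (233 of 3471697 UMIs) and vehicle (174 of 2599565 UMIs). Hormone-sensing cells had 8 of 10 (30.1% of tested genes), with a median of 1.35. There Rtp4 had 21.7 and 17.5 CPM in BPK 4NQO around 21.2 CPM in vehicle, and Rsad2 had 6.26 and 75.3 CPM around 8.09 CPM.

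In macrophages 8 of 10 genes were above vehicle in both BPK 4NQO libraries, against 33.0% of tested genes. Ifit2 had 61.3 and 603 CPM in BPK 4NQO, against 13.4 CPM in vehicle. Oasl2 had 38.3 and 212 CPM in BPK 4NQO, against 11.9 CPM in vehicle. Rsad2 had 153 and 2670 CPM in BPK 4NQO on either side of 216 CPM in vehicle, and Ifit1 had 103 and 669 CPM on either side of 112 CPM. Replicates 1 and 2 thus differed by more than replicate 1 and vehicle for all 4. Without replicate 2 the log2 fold change of Rsad2 was -0.45 and that of Ifit1 -0.06.

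In pericytes the same count was 8 of 10, against 32.5% of tested genes, from few UMIs, and 4 genes were tested. The vehicle pericytes held no UMI of 7 of the 10 genes. Their floor of 3 counts was 11.7 CPM. Rsad2 had 6.54 CPM (2 UMIs) and 135 CPM in BPK 4NQO, so replicate 1 was under that floor and replicate 2 alone was above it. The C1qa ratio would give 40.3 CPM of Rsad2 in replicate 2. Ifit1 had 29.4 and 72.5 CPM in BPK 4NQO, on average at least 4.35-fold above that floor.

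**Figure D3:**
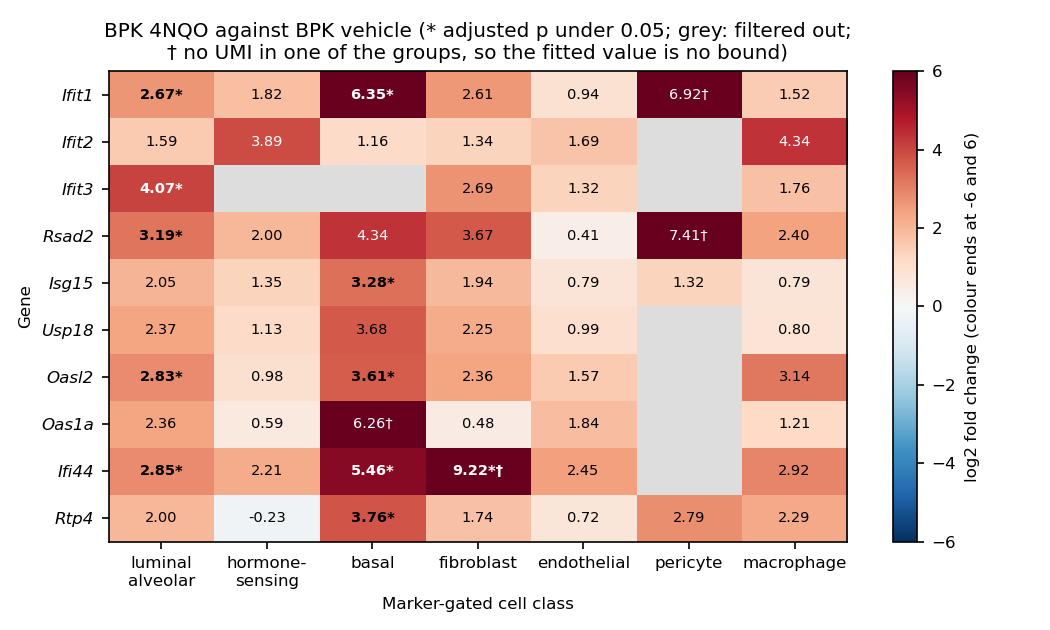
Fitted log2 fold change of each gene in BPK 4NQO against BPK vehicle, by cell class, with a star for an adjusted p under 0.05 and grey for genes too low to test. All but Rtp4 in hormone-sensing cells (-0.23) are above 0, and values with a dagger have no UMI in 1 group, so that the fitted number is no bound.

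Across the 7 classes, 62 of 70 gene and class pairs were higher without overlap and 0 were lower. Overlap here is of the library values alone, without their counting error, and some pairs were nearly level. Besides endothelial Rsad2, fibroblast Ifit2 had 9 of 1614918 UMIs in replicate 1 and 10 of 1973391 in vehicle. Hormone-sensing Ifit2 had 3 and 2 UMIs in the same libraries. The 70 include pairs too low to test, most of them in pericytes, where 4 of the 10 genes were tested. Of all genes tested, 34.9% were higher without overlap in basal, 37.2% in alveolar and 30.1% in hormone-sensing cells. The share was 37.8% in fibroblasts, 26.8% in endothelial cells, 33.0% in macrophages and 32.5% in pericytes. Over all genes tested, 24.4% were lower without overlap in basal, 16.9% in alveolar and 22.1% in hormone-sensing cells, 21.3% in fibroblasts, 24.7% in endothelial cells, 26.1% in macrophages and 25.7% in pericytes. Called lower were 0.0367% in basal, 0.0827% in alveolar and 0.127% in hormone-sensing cells, 0.0653% in fibroblasts, 0.0185% in endothelial cells, 0.0295% in macrophages and 0.0% in pericytes. All 11 calls kept a log2 fold change above 1 without either BPK 4NQO replicate. In basal cells the 5 called genes ran from 2.79 to 6.09 without replicate 1, and from 3.62 to 6.82 without replicate 2. In alveolar cells they ran from 2.84 to 3.88 without replicate 1, and from 1.95 to 4.23 without replicate 2. Of the 62 tested pairs, 6 changed sign without replicate 2 and 0 without replicate 1.

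The share of cells with UMIs of at least 3 of the 10 genes was compared after thinning each cell to 1500 UMIs and leaving out shallower cells. In basal cells it was 2.09% (16 of 764) and 1.58% (7 of 442) in BPK 4NQO, against 0.261% (2 of 765) in PK 4NQO and 0 of 1320 in vehicle, which allows up to 0.227%. In alveolar cells it was 2.17% in the tumor (1 of 46), 2.94% and 2.22% in BPK 4NQO, 0.992% in PK 4NQO and 0.136% in vehicle. In fibroblasts it was 1.89% in the tumor, 4.35% and 5.63% in BPK 4NQO, 4.41% in PK 4NQO and 0.496% in vehicle. Even where the summed level was highest, most epithelial and stromal cells at this depth therefore held UMIs of fewer than 3 of the genes.

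In macrophages of BPK 4NQO replicate 2, 50.2% of cells (332 of 661; exact 95% interval 46.4% to 54.1%) held at least 3 of the genes, against 8.26% in replicate 1, 7.46% in the tumor, 7.84% in PK 4NQO and 9.38% in vehicle. Over all cells with a class, the share was 1.497% in the tumor, 1.99% and 11.4% in BPK 4NQO, 1.32% in PK 4NQO and 0.403% in vehicle. Without thinning, these became 13.6% in the tumor, 12.8% and 21.8% in BPK 4NQO, 5.99% in PK 4NQO and 2.03% in vehicle, with median depths of 20830, 4227, 2968, 3200 and 4470 UMIs in the same order.

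**Figure D4:**
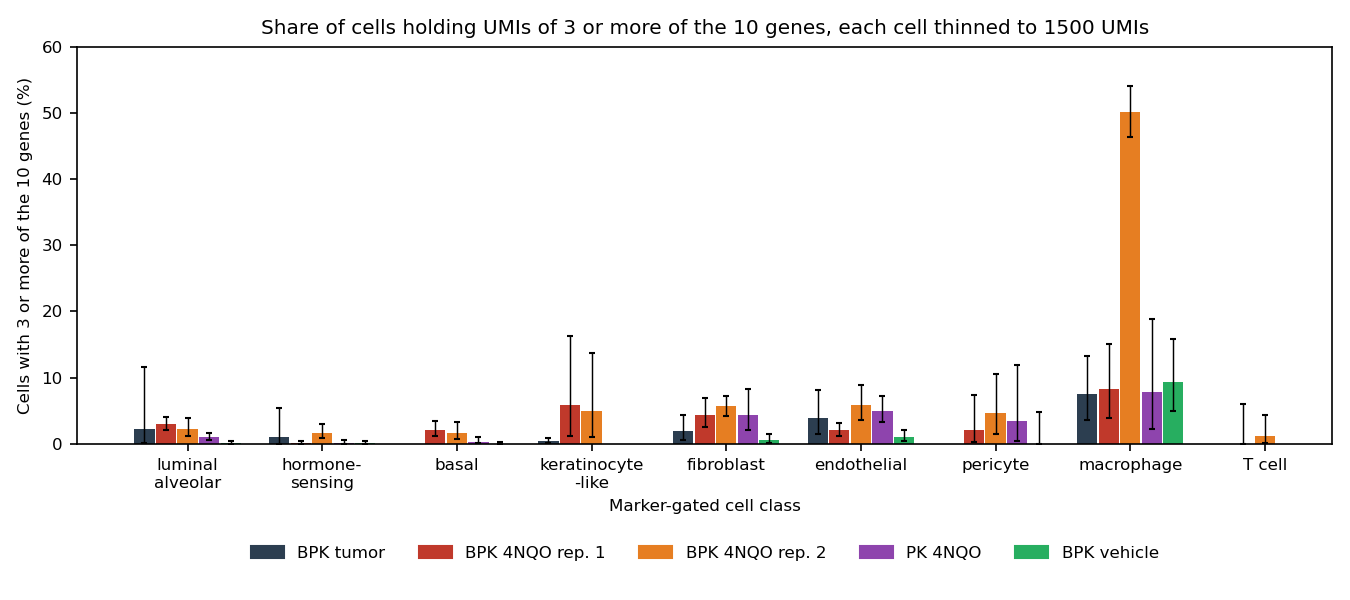
Share of cells with UMIs of 3 or more of the 10 genes after thinning to 1500 UMIs, by class and library, with exact 95% binomial intervals. Macrophages of BPK 4NQO replicate 2 reach 50.2%, and the next highest share among macrophages is 9.38%, in BPK vehicle.

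The genotype comparison set BPK 4NQO against PK 4NQO, the same treatment with 1 floxed or no floxed Brca1 allele, in 8 classes. It shares the BPK 4NQO libraries with the treatment comparison, so the same 2 libraries enter both. No member was called among 66 tested pairs by edgeR's quasi-likelihood test, and none by DESeq2, while 12 had an unadjusted p under 0.05, as did 1.84% of all genes tested over these classes. The shares of all genes called higher were 0.156% in basal, 0.293% in alveolar and 0.174% in hormone-sensing cells, 0.0646% in endothelial cells, 0.06% in pericytes and 0.0% in fibroblasts, macrophages and T cells. Called lower were 0.00917% in basal, 0.0376% in alveolar and 0.0238% in hormone-sensing cells, 0.0147% in macrophages, 0.0934% in T cells and 0.0% in the other 3 classes. The lowest adjusted p was 0.147, for Rsad2 in hormone-sensing cells, with 6.26 and 75.3 CPM in BPK 4NQO against 3.48 CPM in PK 4NQO. Stray macrophage RNA at the C1qa ratio would give 28.8 CPM of it in replicate 2, and without that replicate its log2 fold change was 0.85 in place of the fitted 3.20.

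All 10 genes were above PK 4NQO in both BPK 4NQO libraries in basal cells, against 34.7% of tested genes, and 9 of 10 in alveolar cells, against 39.5%. Basal Ifit2, however, had 3 UMIs in replicate 1 and 2 in PK 4NQO, whose floor of 3 counts was 1.27 CPM. Its order there cannot be read. For basal Rsad2, the stray macrophage RNA given above for replicate 2 exceeds the measured level. In basal cells Ifit1 had 45.9 and 25.5 CPM in BPK 4NQO, against 8.05 CPM in PK 4NQO. Isg15 had 147 and 101 CPM in BPK 4NQO, against 41.5 CPM in PK 4NQO, and Oasl2 had 32.1 and 40.3 CPM against 10.2 CPM. The median log2 fold change of the tested genes was 1.67 in basal and 0.86 in alveolar cells, beside 0.0039 and 0.0077 over all genes. It was 0.89 in hormone-sensing cells, 0.86 in fibroblasts, 1.37 in macrophages (0.91 with genes of a zero group at their bound) and 0.26 in endothelial cells. Of the basal cells of PK 4NQO, 92.7% fell in cluster 0, as in replicate 1 and unlike replicate 2.

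In the other classes, both BPK 4NQO libraries were above PK 4NQO for 7 genes in hormone-sensing cells (35.4% of tested genes), 7 in fibroblasts (34.0%), 5 in macrophages (42.9%), 5 in T cells (36.5%), 3 in endothelial cells (32.0%) and 3 in pericytes (28.3%). Both were below PK 4NQO for 4 genes in pericytes (30.6% of tested genes), 2 in endothelial cells (24.2%) and 2 in T cells (27.1%), and for none in basal (23.5%), alveolar (16.2%) or hormone-sensing cells (20.7%), fibroblasts (29.5%) or macrophages (21.4%). Endothelial Isg15, for example, had 186 and 168 CPM in BPK 4NQO, against 236 CPM in PK 4NQO. These counts are over all 10 genes, while 4 were tested in T cells and 4 in pericytes. The floor of 3 counts in PK 4NQO was 35.7 CPM in T cells, 16.1 CPM in macrophages and 14.8 CPM in pericytes. Genes under that floor cannot be ranked there. Over all 66 tested pairs, 56 had a log2 fold change above 0, with a median of 0.90, and 14 changed sign without replicate 2 and 3 without replicate 1.

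The tumor comparison set the BPK tumor library against BPK 4NQO glands in 6 classes, and 6 of 60 pairs were called (56 tested). Of all genes tested over these classes, 1.02% were called higher and 0.869% lower. The calls were 3 genes lower in keratinocyte-like cells, 2 lower in fibroblasts and Oas1a higher in hormone-sensing cells. The tumor differs from the glands in the number of injections as well as in being a tumor, and these cannot be told apart. It was also the deepest library, with a median of 15195.5 UMIs a barcode, and lost 12.9% of barcodes to the mitochondrial limit, against 0.839% to 2.15% in the glands.

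Among keratinocyte-like cells, with 1120 in the tumor against 54 and 67 in BPK 4NQO, 3 genes were called lower, where 0.978% of genes tested were, and 0 higher, where 0.615% were. Ifi44 had 1.69 CPM in the tumor, against 23.6 and 83.0 CPM in BPK 4NQO (log2 fold change -4.59 ± 0.98, adjusted p = 0.000778). Oasl2 had 2.06 CPM in the tumor, against 25.4 and 69.2 CPM in BPK 4NQO (-4.14 ± 0.97, adjusted p = 0.00388). Rtp4 had 6.46 CPM in the tumor, against 107 and 63.6 CPM in BPK 4NQO (-3.43 ± 0.96, adjusted p = 0.0290). In each case the tumor library lies below both gland libraries, which do not overlap with it.

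Isg15 had 14.2 CPM in tumor keratinocyte-like cells, against 167 and 185 CPM in BPK 4NQO, and Ifit1 had 1.498 CPM against 23.6 and 38.7 CPM. Neither passed edgeR's quasi-likelihood test (adjusted p = 0.0840 and 0.0590), while DESeq2 called both besides the other 3. Usp18 had 6.29 CPM in the tumor, against 32.7 and 36.0 CPM in BPK 4NQO. Ifit2 was left with 1 UMI in the tumor (0.0246 CPM), against 1.81 and 8.30 CPM in BPK 4NQO from 1 and 3 UMIs. In all, 9 of the 10 genes were below both BPK 4NQO libraries, against 45.1% of tested genes, and 0 above, against 21.2%. Oas1a was the exception, with 4.74 CPM in the tumor between 3.63 and 8.30 CPM in BPK 4NQO. Of the 10 genes, 6 were tested. Rsad2, counted among the 9, had 73 of 40726057 UMIs in the tumor and 1 of 551190 in replicate 1. These shares are nearly the same, so its order there rests on 1 UMI. The share of cells with at least 3 of the genes was 0.365% in the tumor (4 of 1096), against 5.88% (3 of 51) and 4.92% (3 of 61) in BPK 4NQO.

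Different clusters hold this class on either side. Of the tumor cells, 82.9% fell in Leiden cluster 11 and 15.2% in cluster 17, which took no name. Of the gland cells, 61.1% and 41.8% fell in cluster 17, and 24.1% of those of replicate 1 fell in cluster 0 and 40.3% of those of replicate 2 in cluster 15, both of them basal clusters. The dissociation stress list summed to 2561 CPM in these cells of the tumor, against 3131 and 6655 CPM in BPK 4NQO. The part of either difference in the lower levels was not tested.

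In fibroblasts 2 genes were called lower in the tumor, where 1.24% of genes tested were, and 0 higher, where 1.21% were. Rsad2 had 1.97 CPM in the tumor, against 28.5 and 31.1 CPM in BPK 4NQO (-3.65 ± 0.94, adjusted p = 0.00787). Ifit2 had 0.873 CPM in the tumor, against 5.57 and 23.8 CPM in BPK 4NQO (-3.77 ± 1.08, adjusted p = 0.0262), and -2.50 without replicate 2. Of the 10 genes, 9 were below both BPK 4NQO libraries, against 45.6% of tested genes, and Oas1a was above both, against 27.4%. Ifit3 had 5.02 CPM in the tumor, against 49.5 and 31.3 CPM in BPK 4NQO. The gap was small for Isg15, with 169 CPM in the tumor against 224 and 209 CPM in BPK 4NQO. DESeq2 called neither gene and gave no adjusted p for Ifit2. Of these fibroblasts, 89.5% of those of the tumor fell in cluster 21, against 84.7% of those of replicate 1 in cluster 5 and 77.0% of those of replicate 2 in cluster 13. The stress list summed to 3033 CPM in tumor fibroblasts, against 11120 and 16140 CPM in BPK 4NQO. The part of either in the lower levels was not tested.

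Oas1a went the other way. It had 16.4 CPM in hormone-sensing cells of the tumor, against 1.42 and 2.43 CPM in BPK 4NQO (3.28 ± 0.91, adjusted p = 0.0359), where 0.719% of genes tested were called higher and 0.234% lower. That call was not made by DESeq2 or under a stricter marker gate. Cluster 16 held 95.1% of the hormone-sensing cells of the tumor and 21.02% of those of replicate 1, of which 61.2% fell in cluster 2, while 87.4% of those of replicate 2 fell in cluster 7. The stress list summed to 5571 CPM there in the tumor, against 9569 and 10610 CPM in BPK 4NQO, and the part of either in the higher level was not tested. Its level in the tumor was also above both BPK 4NQO libraries in alveolar cells (15.7 against 2.94 and 5.46 CPM), fibroblasts (12.2 against 3.10 and 7.92 CPM), endothelial cells (10.9 against 1.73 and 4.87 CPM) and macrophages (44.4 against 9.57 and 21.1 CPM). None of these 4 was called.

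In the same cells Rtp4 had 77.7 CPM in the tumor, against 21.7 and 17.5 CPM in BPK 4NQO, and Usp18 had 41.5 CPM against 16.3 and 17.3 CPM, neither of them called. In all 4 genes were above both gland libraries there, while 25.7% of tested genes were above both and 41.6% below both. Ifit2 had no UMI in the tumor, where the floor of 3 counts is 1.75 CPM, against 0.251 CPM (3 UMIs) and 7.02 CPM in BPK 4NQO, so its place relative to replicate 1 cannot be read. Alveolar cells had no called member by edgeR's quasi-likelihood test or DESeq2 and 5 at an unadjusted p under 0.05, as had 9.2% of all genes tested there, where 1.1% of genes tested were called higher and 0.348% lower. They had 3 genes above both gland libraries (29.2% of tested genes) and 5 below (46.8%). Of the alveolar cells of the tumor, 36% fell in cluster 3, 32% in cluster 17 and 16% in cluster 16, a hormone-sensing cluster. Cluster 3 held 56.4% of those of replicate 1, and cluster 7 held 76.6% of those of replicate 2. The stress list summed to 3510 CPM in them in the tumor, against 13540 and 14420 CPM in BPK 4NQO. The part of either in these values was not tested. Ifit2 and Ifit3 had no UMI in the 50 alveolar cells of the tumor, where the floor of 3 counts is 3.62 CPM, against 3.16 and 8.91 CPM of Ifit2 and 5.64 and 5.17 CPM of Ifit3 in BPK 4NQO, so the Ifit2 level of replicate 1 is under that floor.

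**Figure D5:**
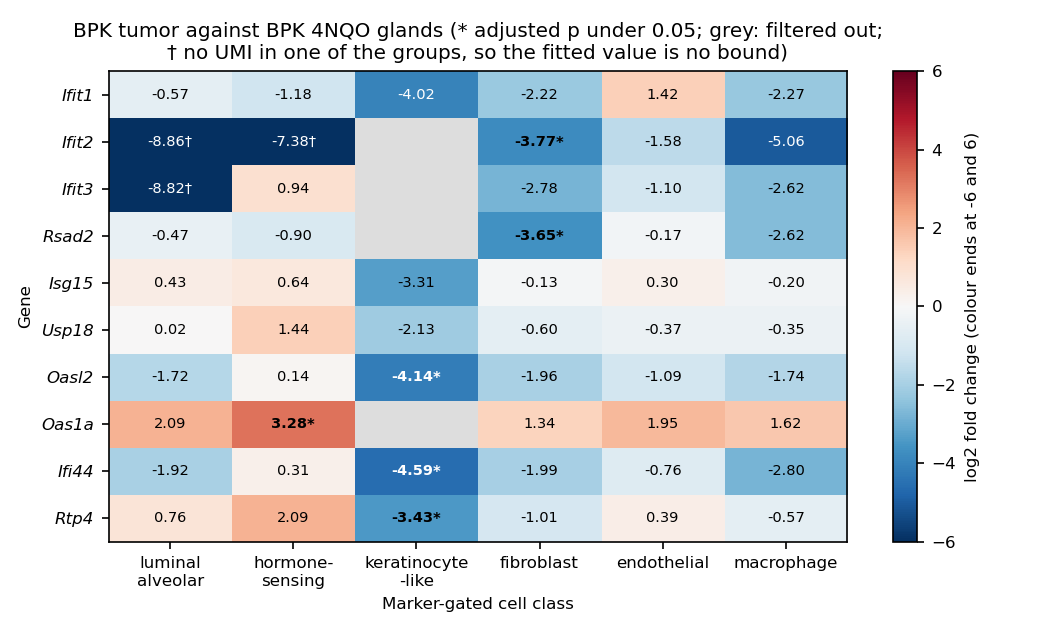
Fitted log2 fold change of each gene in the BPK tumor against BPK 4NQO glands, by cell class, with a star for an adjusted p under 0.05 and grey for genes too low to test. Keratinocyte-like cells are below 0 for all 6 tested genes and Oas1a is above 0 in all 5 classes where it was tested; a dagger marks no UMI in 1 group, so that the fitted number is no bound.

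Macrophages and endothelial cells had no called member by edgeR's quasi-likelihood test, with 3 and 2 at an unadjusted p under 0.05, as had 3.57% and 15.1% of all genes tested there. Of genes tested, 0.215% were called higher and 0.0134% lower in macrophages, and 1.91% higher and 2.37% lower in endothelial cells. DESeq2 called Ifit2 in macrophages, with 8.37 CPM in the tumor against 61.3 and 603 CPM in BPK 4NQO. In macrophages 7 genes were below both gland libraries (32.6% of tested genes) and 1 above (26.9%), and in endothelial cells 4 were below (43.4%) and 3 above (32.8%). Ifit1 was among those above, with 68.3 CPM in tumor endothelial cells against 22.5 and 34.1 CPM in BPK 4NQO. Cluster 12 held 88.0% of the endothelial cells of the tumor, against 15.3% and 23.4% in BPK 4NQO, where cluster 4 held 57.4% and 37.6%. The stress list summed to 4331 CPM in tumor endothelial cells, against 15250 and 14270 CPM in BPK 4NQO. The part of either in the endothelial values was not tested. Over the 56 tested pairs of this comparison the median log2 fold change was -0.95 (-0.75 with genes of a zero group at their bound). Medians over all genes ran from -0.17 to -0.06.

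The rest of the pathway was counted from lists. Among 14 type I and III interferon genes, Ifnb1, which encodes interferon beta, was found mainly in macrophages, at 58.6 CPM in the tumor, 68.9 and 72.6 CPM in BPK 4NQO, 16.1 CPM (3 UMIs) in PK 4NQO and 73.1 CPM in vehicle. Over all kept cells Ifnb1 had 1.37 CPM in the tumor, 0.876 and 10.0 CPM in BPK 4NQO, 0.312 CPM in PK 4NQO and 1.00 CPM in vehicle. Its part in the levels of the 10 genes was not tested. Ifnl3, an interferon lambda, was called higher in tumor hormone-sensing cells, at 11.7 CPM against 0.167 and 0.270 CPM (2 and 1 UMIs) in BPK 4NQO (adjusted p = 0.00868). It was the single call of this list over the 3 comparisons. Ifnk, also of this list, had 5.31 CPM (307 UMIs) in the tumor over all kept cells. It had 1.24 and 0.147 CPM in BPK 4NQO, 0.966 CPM in PK 4NQO and 0.844 CPM in vehicle. Ifng, the interferon gamma gene, had 201 and 211 CPM in T cells of BPK 4NQO and 274 CPM in those of PK 4NQO.

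Of the 6 receptor genes none was called in 36 tested pairs of treatment, 40 of genotype or 31 of tumor. Ifngr1, which binds interferon gamma, had 86.8 CPM in alveolar cells of the tumor, 50.4 and 55.8 CPM in BPK 4NQO, 43.8 CPM in PK 4NQO and 41.9 CPM in vehicle. Ifnar2 in the same class had 48.2 CPM in the tumor, 56.7 and 52.6 CPM in BPK 4NQO, 47.1 CPM in PK 4NQO and 40.3 CPM in vehicle. The 6 genes of the JAK-STAT list had 0 calls in 40 treatment and 44 genotype pairs, although 37 and 40 of the log2 fold changes were above 0. Negative regulators had no call in 39 treatment, 44 genotype or 32 tumor pairs, and the ISG15 conjugation machinery none in 26, 29 or 23. Among these, the inhibitor Socs3 had 856 and 514 CPM in basal cells of BPK 4NQO, 870 CPM in PK 4NQO and 507 CPM in vehicle, and the phosphatase gene Ptpn2 had 70.8 and 72.9 CPM, 70.7 CPM and 68.5 CPM in the same libraries. The ISG15 ligases Trim25 and Herc6 had 17.2 and 39.6 CPM and 11.5 and 16.3 CPM in basal cells of BPK 4NQO, against 8.56 and 4.65 CPM in vehicle.

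Other type I interferon-induced antiviral genes had 4 calls in 121 treatment pairs, all higher, 0 in 134 genotype pairs, and 3 in 109 tumor pairs, all lower. The treatment calls were Oas2, Oas3 and Ifi27l2a in alveolar cells and Oasl1 in hormone-sensing cells. Oas2, another oligoadenylate synthetase, had 10.4 and 17.8 CPM in BPK 4NQO, against 0.243 CPM in vehicle (5.60 ± 0.87, adjusted p = 3.56e-07). Oas3 had 5.04 and 6.90 CPM in BPK 4NQO, against 0.243 CPM in vehicle (adjusted p = 0.00856), and Ifi27l2a had 302 and 243 CPM against 20.2 CPM (adjusted p = 0.0331). Oasl1 rested on replicate 2, with 0.918 and 22.1 CPM in BPK 4NQO against 0.590 CPM in vehicle. The tumor calls were Cmpk2 and Parp14 in fibroblasts and Xaf1 in keratinocyte-like cells, where Xaf1 had 5.80 CPM in the tumor against 49.0 and 122 CPM in BPK 4NQO. Cmpk2, the neighbour of Rsad2 on chromosome 12, had 0.655 CPM in tumor fibroblasts against 8.67 and 15.3 CPM in BPK 4NQO.

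Genes that respond mainly to interferon gamma had 15 calls in 56 treatment pairs and 5 in 60 genotype pairs, all higher, and 10 in 52 tumor pairs, all lower. Cxcl9, a T cell chemokine, had 35.6 and 89.1 CPM in basal cells of BPK 4NQO, 0.424 CPM in PK 4NQO and 0.372 CPM in vehicle. It was called in that class in the treatment (adjusted p = 5.23e-07) and in the genotype comparison (adjusted p = 3.94e-05). Ubd, which encodes the ubiquitin-like protein FAT10, was the other gene of this list called by genotype, in basal, alveolar and hormone-sensing cells. In alveolar cells it had 116 and 33.3 CPM in BPK 4NQO, 5.95 CPM in PK 4NQO and 0.526 CPM in vehicle. Iigp1, an immunity-related GTPase, had 0.884 CPM in tumor keratinocyte-like cells, against 152 and 260 CPM in BPK 4NQO (adjusted p = 2.00e-05).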

How the data were processed

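The deposited files hold UMI counts per gene and barcode, made by the authors with Cell Ranger 5.0.1 (3.0.2 for PK 4NQO), per the file headers, against mm10, per the submitters' processing notes. Chemistry was 3' v2 per the labels; the barcodes of BPK 4NQO replicate 2 leave doubt there. The 4NQO dose was not used, since its unit is in doubt.

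Barcodes with under 300 genes or over 20% mitochondrial UMIs were left out. A cell took the class whose marker score led the next by 1.5 with at least 2 markers found; cells of mixed score, doublets among them, stayed unresolved, as did 3667 epithelial cells (median 10035 UMIs, against 6461.5 in resolved luminal cells). The gate was set after the markers, not the 10 genes, were seen. Counts were summed per class and library of at least 30 cells and tested with edgeR 4.0.16 (filterByExpr by group, so that 1 library can pass a gene; TMM). BPK 4NQO gives the only residual degree of freedom, and the spread of each unreplicated library is taken to equal it. Standard errors (SE) were had by dividing the size of the log2 fold change by the root of its F statistic. Intervals and floors cover counting error only. Scripts were tested on simulated data. The 10 genes, lists, rules and tests were chosen with earlier results of these data known. All 10 genes are named, with listed genes past the threshold (2 by mean level where none is) and the 5 most alike. The choices varied were the tool (DESeq2 1.42.0), the scaling (RLE), the filter (none), the compared libraries alone, each replicate left out, a stricter gate (lead 2, 3 markers), Leiden clusters (scanpy 1.11.5) and scrublet. The tumor comparison of the JAK-STAT list is not reported here.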

Additional observations from a re-analysis of the deposited data

Results flagged for a closer look

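For 10 gene and comparison combinations, both BPK 4NQO libraries lay on 1 side of the other library in some classes and on the opposite side in others. The differences between classes were not tested. Against PK 4NQO, Ifit1 was higher in 7 classes and lower in endothelial cells, with 22.5 and 34.1 CPM in BPK 4NQO against 40.2 CPM in PK 4NQO. In the same comparison Isg15 was higher in 5 classes and lower in endothelial cells and pericytes, and Usp18 was higher in 6 and lower in pericytes. Oas1a was higher in 5 classes and lower in pericytes, Oasl2 higher in 4 and lower in T cells, and Rtp4 higher in 2 and lower in 2, pericytes and T cells. Of Oas1a, PK 4NQO macrophages held no UMI. Their floor of 3 counts was 16.1 CPM, above the BPK 4NQO mean of 15.3 CPM, so the order there cannot be read. PK 4NQO endothelial cells held 1 UMI of Oas1a.

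With the tumor set against BPK 4NQO, Ifit1 was higher in 1 class, endothelial cells, and lower in 4. Isg15 was higher in 3 classes and lower in fibroblasts and keratinocyte-like cells. Usp18 was higher in 1 class, hormone-sensing cells, and lower in 4, and Rtp4 was higher in 2, both luminal, and lower in 3. The pericyte and T cell values rest on few UMIs, with 2 UMIs of Oas1a in PK 4NQO pericytes against 0 and 1 in BPK 4NQO.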

How the results depend on the processing

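RLE factors, no low count filter and models of the compared libraries alone left the counts of 11, 0 and 6 called pairs (treatment, genotype, tumor) as they were. Without the filter, though, the treatment calls were 6 in basal and 4 in alveolar cells, in place of 5 in each. Classes from Leiden clusters also gave 6 in basal and 4 in alveolar cells. The stricter gate and leaving out the highest scrublet scores gave 10 treatment pairs each, and 4 and 7 tumor pairs. DESeq2 called 5 treatment pairs: 2 in basal cells, 3 in alveolar cells and 0 in fibroblasts, where it gave no adjusted p for Ifi44. In the tumor it called 5 members in keratinocyte-like cells, 1 in macrophages, 0 in fibroblasts and 0 in hormone-sensing cells. The stricter gate also gave 0 in hormone-sensing cells, and leaving out the highest scrublet scores gave 1 in alveolar cells of the tumor comparison. With classes from Leiden clusters, 2 tumor pairs were called in 3 classes; the keratinocyte-like, alveolar and hormone-sensing classes of the tumor comparison, and hormone-sensing cells elsewhere, were not fitted. The median over classes of the summed level then became 472 CPM in the tumor, 432 and 510 CPM in BPK 4NQO, 231.5 CPM in PK 4NQO and 93.3 CPM in vehicle, in place of 342, 368, 495, 192 and 91.5 CPM. Without thinning, the share of cells with 3 or more of the genes was 13.6% in the tumor, 12.8% and 21.8% in BPK 4NQO, 5.99% in PK 4NQO and 2.03% in vehicle; with 2 or more genes in place of 3 they were 4.39% in the tumor, 7.26% and 20.8% in BPK 4NQO, 4.69% in PK 4NQO and 1.40% in vehicle. Where a count changed, the cause was not tested.

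Without either replicate no residual degrees of freedom remain, and this setting gives fold changes alone. No paired analysis was possible because BPK 4NQO is the only group with more than 1 library. Depth limits rare classes and Ifit2, Ifit3 and Oas1a most, which often had under 10 UMIs in a class.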

Other observations

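Scarce classes held the genes too, without a comparison. Dendritic cells reached the minimum of 30 cells in BPK 4NQO replicate 2 alone (46 cells), where Ifit2 had 173 CPM (25 UMIs), Isg15 160 CPM and Rsad2 118 CPM. In that library C1qa of dendritic cells was at 0.644% of its macrophage level, a ratio that would give 3.88 CPM of Ifit2. Schwann-like cells had a summed level of 250 CPM (95% counting interval 160 to 371) in BPK 4NQO replicate 2, 164 CPM (81.7 to 293) in PK 4NQO and 22.5 CPM (1 UMI) in vehicle. Neutrophils of the tumor, 52 cells, held 23 UMIs of Isg15 and 4 each of Oasl2 and Rtp4, and none of the other 7 genes.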
